A study of Mus musculus with 2 samples.

Results

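The proteasome is described here through its subunit genes in regulatory T cells (Tregs) of adult mice, taken from the back skin and the lung. Members were the genes named Psma, Psmb, Psmc, Psmd, Psme, Psmf or Psmg plus a number that both gene lists contain, 48 of 27514 shared genes. Of these, 43 are called constitutive below and 5, Psmb8, Psmb9, Psmb10, Psme1 and Psme2, are the immunoproteasome members. Skin cells were from Foxp3-CreERT2GFP animals. Lung cells were from Foxp3-GFP animals, a strain that the labels call Tachilla. Both are C57Bl/6, and each tissue has 1 library. Tissues were digested with collagenase, and cells carrying CD45, CD3, CD4 and GFP were collected by sorting, with GFP as the reporter of Foxp3, the transcription factor that defines Tregs. Single-cell libraries of the 10x 3′ v2 kind count each captured RNA molecule by a unique molecular identifier (UMI). The number of animals is not given in the labels, and the reporter strain, the library and the gene annotation all differ with the tissue, so that their parts in any difference cannot be told apart.

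The proteasome is the barrel-shaped protease that degrades proteins tagged with ubiquitin. Its core is built from rings of alpha subunits, which form the gate, and rings of beta subunits, of which Psmb5, Psmb6 and Psmb7 encode the ones that cut. Interferons and other inflammatory signals lead cells to make Psmb8, Psmb9 and Psmb10 in place of Psmb5, Psmb6 and Psmb7 in new particles, and lymphocytes carry such immunoproteasomes also at rest. The core is capped by a regulatory particle of ATPases (Psmc) and other subunits (Psmd), which bind and unfold substrates, or by the activator ring encoded by Psme1 and Psme2, which interferon gamma induces. Peptides made by immunoproteasomes are loaded onto MHC class I.

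Cells with at least 1 UMI of Cd3d, Cd3e or Cd3g were used, 6510 of 6601 barcodes in skin and 8399 of 8730 in lung. Their median was 2064.5 UMIs in skin and 2364 in lung. Counts were summed over these cells, 15992105 UMIs of shared genes in skin and 23479421 in lung, and scaled to the same library total (CPM). Of the 6 T cell markers listed, 5 were measured, with a summed level of 5009 CPM in skin and 3663 CPM in lung. The 5 Treg markers, Foxp3, Il2ra, Ctla4, Ikzf2 and Tnfrsf18, summed to 3812 CPM in skin and 1328 CPM in lung. At least 3 of their UMIs were found in 92.5% of skin cells and 55.8% of lung cells. Foxp3 had a UMI in 5.67% of skin and 3.63% of lung cells, against 2.20% and 1.21% of the skin and lung barcodes without a Cd3 UMI. Of 41 markers of other cell types, 35 had a UMI in skin cells and 36 in lung cells, summing to 1979 CPM in skin, mostly fibroblast genes (1736 CPM), and 4428 CPM in lung, mostly lung epithelium genes (3782 CPM). The skin cells had no UMI of Sftpc, Sftpb, Sftpa1 or Scgb1a1, and the lung cells none of Krt14, Krt5 or Krt15. The share of UMIs from ribosomal protein genes was 18.9% in skin and 38.2% in lung, and the libraries shared 82 barcode sequences. With 1 library a tissue no test was possible, and the 95% intervals given below cover counting error only.

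As a whole, constitutive proteasome RNA was 1.38-fold higher in skin, while immunoproteasome RNA was at nearly the same level in both tissues. The 43 constitutive members summed to 5671 CPM in skin and 4096 CPM in lung, a ratio of 1.38 (1.37 to 1.40). The 5 immunoproteasome members summed to 1433 CPM in skin and 1426 CPM in lung, a ratio of 1.00 (0.987 to 1.02). Immunoproteasome members made up 20.2% (19.9 to 20.4) of all proteasome UMIs in skin and 25.8% (25.6 to 26.1) in lung, a share that no library scaling affects. The CPM scale itself puts most genes higher in skin. Among the 5698 genes that reached 20 CPM in at least 1 library, the median log2 ratio of skin over lung was 0.36, computed after adding 5 CPM to both sides, and the quartiles were -0.01 and 0.74. Relative to that median, the constitutive sum (log2 ratio 0.47) stood slightly above the typical gene and the immunoproteasome sum (0.01) below it. Scaling by the median of ratios gave 0.06 for the constitutive and -0.40 for the immunoproteasome sum, and totals without ribosomal protein and mitochondrial genes gave 0.08 and -0.39.

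**Figure D1:**
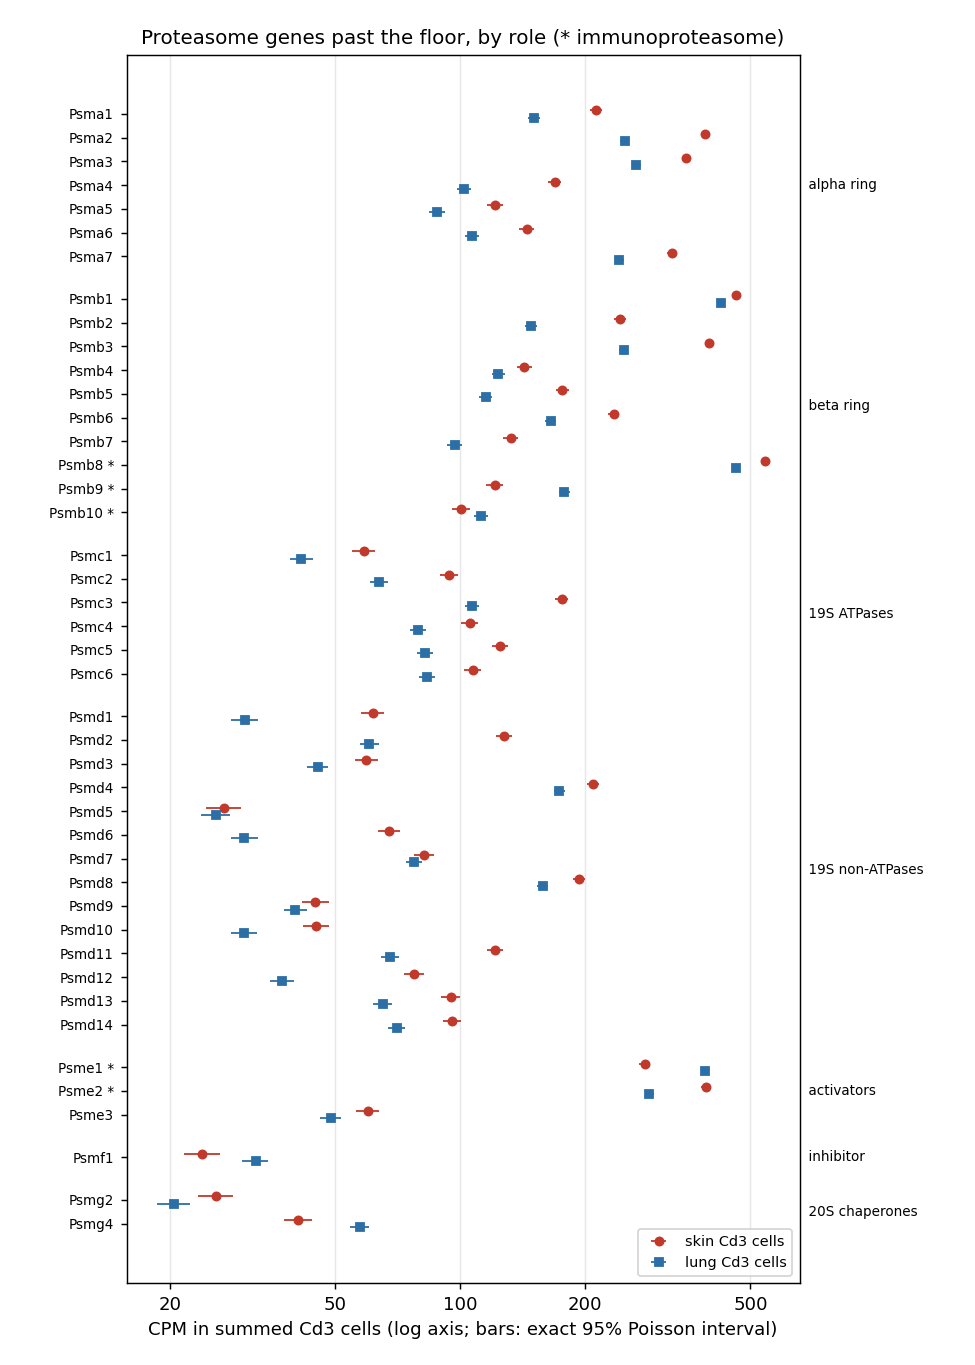
Level of each of the 43 proteasome genes past 20 CPM in either library, in CPM on a log axis, grouped by role, for the summed Cd3 cells of skin (red circles) and lung (blue squares), 1 library each, with 95% counting intervals. Psmb8 and Psmb1 lead in both libraries, and Psmb9 and Psme1 lie lower in skin. Of the constitutive genes 36 of 38 lie higher in skin on this scale, against 74.5% of all genes. Under median-of-ratios scaling 24 of 38 do, where the all-gene median log2 ratio is -0.0002.

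Of the 48 members, 43 reached 20 CPM in at least 1 library, 38 constitutive and all 5 immunoproteasome members. Among these, 2 constitutive members exceeded a 2-fold difference toward skin after 5 CPM was added to both sides, against 15.0% of all genes tested, and none was 2-fold higher in lung, against 5.04% of all genes. A log2 ratio above 0 was found for 36 of 38 constitutive and 2 of 5 immunoproteasome members, against 74.5% of all genes. These counts were 24 and 1 under median-of-ratios scaling, where the median log2 ratio of all genes was -0.0002. On the CPM scale the median member had a log2 ratio of 0.43 among constitutive and -0.16 among immunoproteasome members, beside 0.36 for all genes. The order of levels was alike in the tissues: across the 43 members, skin and lung CPM had a Spearman correlation of 0.93, a description over genes that share each library. UMIs are counted near the 3′ end and do not grow with transcript length, but capture differs between genes, so levels are compared mainly within a gene.

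Among the catalytic subunits, each immunoproteasome gene was lower in skin relative to the constitutive gene it replaces. Psmb8, which replaces the chymotrypsin-like Psmb5, was the most abundant proteasome gene in both libraries, at 543 CPM (531 to 554) in skin, against 463 CPM (454 to 471) in lung. Psmb9, which replaces the caspase-like Psmb6, had 121 CPM (116 to 127) in skin, against 178 CPM (173 to 184) in lung, ranking 24th of the members in skin and 9th in lung. Psmb10, which replaces the trypsin-like Psmb7, had 100.5 CPM in skin and 112.5 CPM in lung. Of these 3 genes Psmb9 stood furthest apart and was the lower in skin, with a ratio of 0.680 (0.644 to 0.718). The ratio was 0.893 (0.839 to 0.951) for Psmb10. For Psmb8 it was 1.17 (1.14 to 1.21), a log2 ratio of 0.23 that lies below the all-gene median and was -0.18 with median-of-ratios scaling and -0.16 with totals free of ribosomal protein and mitochondrial genes.

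The constitutive counterparts were all higher in skin on the CPM scale. Psmb5 had 176 CPM in skin and 115 CPM in lung, a ratio of 1.53 (1.45 to 1.61). Psmb6 followed with 234 CPM in skin and 165 CPM in lung, 1.42-fold (1.35 to 1.48). Psmb7 had 132 CPM in skin and 97.0 CPM in lung, 1.36-fold (1.28 to 1.45). Under median-of-ratios scaling the log2 ratio was 0.20 (0.12 to 0.27) for Psmb5, 0.09 (0.03 to 0.16) for Psmb6 and 0.04 (-0.04 to 0.12) for Psmb7. With totals free of ribosomal protein and mitochondrial genes it was 0.22 (0.14 to 0.29), 0.11 (0.04 to 0.17) and 0.05 (-0.03 to 0.14) for the same genes, so that the intervals of Psmb7 include 0 under both.

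Setting each immunoproteasome gene against its counterpart within the same library removes the scaling. Psmb9 made up 34.1% (32.8 to 35.3) of Psmb9 plus Psmb6 UMIs in skin and 51.8% (50.7 to 52.9) in lung. For Psmb10 with Psmb7 the share was 43.2% (41.6 to 44.8) in skin and 53.7% (52.3 to 55.1) in lung. Psmb8 with Psmb5 had the highest share and the narrowest difference, 75.5% (74.7 to 76.3) in skin and 80.1% (79.4 to 80.7) in lung. All 3 pairs together gave 58.5% (57.8 to 59.1) in skin, 12220 of 20897 UMIs, and 66.6% (66.0 to 67.2) in lung, 17684 of 26547 UMIs. The share was therefore lower in skin for each pair, beyond the counting intervals. These shares compare the tissues and do not measure what particles are made of, since capture differs between genes.

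**Figure D2:**
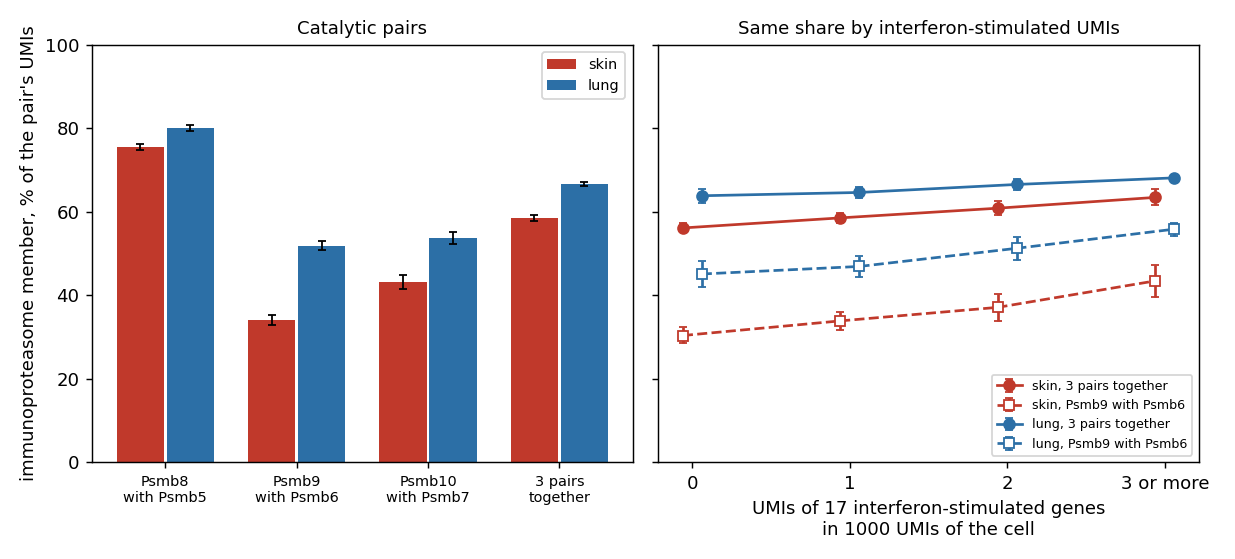
Share of immunoproteasome UMIs within each catalytic pair and over the 3 pairs (left, percent, skin red and lung blue bars with 95% counting intervals), and the share for the 3 pairs and for Psmb9 with Psmb6 by UMIs of interferon-stimulated genes per cell thinned to 1000 UMIs (right). Every share is lower in skin, and the 2 shares drawn at right are higher in bins with more interferon-stimulated UMIs in both tissues. In lung the Psmb8 and Psmb10 shares, not drawn by bin, were 80.0% and 51.25% at 0 and 80.6% and 53.2% in the top bin.

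Psmb8 and Psmb9 lie near each other in the MHC region of chromosome 17. On GRCm38, in GENCODE release M21, Psmb8 (ENSMUSG00000024338) spans chr17:34197721-34201454 on the plus strand and Psmb9 (ENSMUSG00000096727) chr17:34181987-34187764 on the minus strand. Psmb10 (ENSMUSG00000031897) lies at chr8:105935735-105938444, minus strand. Their counterparts are spread over the genome, Psmb5 (ENSMUSG00000022193) at chr14:54614119-54618022, minus strand, Psmb6 (ENSMUSG00000018286) at chr11:70525367-70527858, plus strand, and Psmb7 (ENSMUSG00000026750) at chr2:38588036-38644087, minus strand. Psmb9 overlaps Tap1, a subunit of the peptide transporter, on the opposite strand, Psmb8 overlaps Gm20496, Psmb10 overlaps Gm16156 and Psmb7 overlaps Nek6. Whether counting used the strand is not given in the sources used here, so reads of these overlaps may not be separable. Tap1 had 127 CPM in skin and 93.1 CPM in lung, in the opposite direction to Psmb9.

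The promoters of 5 members the results turn on are shown, 4 of which carry a motif tied to an inducing signal, as windows of 250 bases before to 50 after the start from RefSeq on GRCm38.p6. Capitals mark a match to TTCNNNGAA (the GAS element of interferon gamma responses) in Psmb8 at chr17:34197945-34198244, plus strand, and to GAAA, any 2 bases and GAAA (bound by interferon regulatory factors, here on the opposite strand) in Psme1 at chr14:55578244-55578543, plus strand. In Psmb5 at chr14:54617946-54618245, minus strand, and Psmb6 at chr11:70525107-70525406, plus strand, they mark TGACNNNGC, the core of the antioxidant response element bound by NRF1 and NRF2. Psmb9 at chr17:34187281-34187580, minus strand, held none of these in its window and is printed for comparison with Psmb8. By the GENCODE coordinates given here, the windows of Psmb8, Psmb9 and Psme1 lie wholly inside the gene, downstream of its GENCODE start. Sequence before the GENCODE start of these genes was not searched for them, so an absent match there is not shown.
Psmb8: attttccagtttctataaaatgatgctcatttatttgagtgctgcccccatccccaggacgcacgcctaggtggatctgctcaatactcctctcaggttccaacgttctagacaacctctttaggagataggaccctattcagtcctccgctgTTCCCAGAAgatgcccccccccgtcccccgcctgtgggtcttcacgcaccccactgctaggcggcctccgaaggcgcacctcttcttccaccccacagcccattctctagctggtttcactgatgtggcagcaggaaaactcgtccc
Psmb9: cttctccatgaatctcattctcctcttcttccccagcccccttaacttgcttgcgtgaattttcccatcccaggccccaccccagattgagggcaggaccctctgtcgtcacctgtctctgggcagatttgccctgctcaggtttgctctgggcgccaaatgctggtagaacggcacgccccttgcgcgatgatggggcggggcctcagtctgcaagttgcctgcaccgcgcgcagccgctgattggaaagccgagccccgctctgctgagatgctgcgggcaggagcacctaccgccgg
Psmb5: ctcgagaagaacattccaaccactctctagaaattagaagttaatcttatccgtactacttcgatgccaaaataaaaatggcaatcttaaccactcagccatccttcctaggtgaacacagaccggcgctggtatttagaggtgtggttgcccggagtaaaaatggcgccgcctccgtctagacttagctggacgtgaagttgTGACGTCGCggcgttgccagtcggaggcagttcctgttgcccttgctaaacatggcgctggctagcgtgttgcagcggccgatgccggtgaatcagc
Psmb6: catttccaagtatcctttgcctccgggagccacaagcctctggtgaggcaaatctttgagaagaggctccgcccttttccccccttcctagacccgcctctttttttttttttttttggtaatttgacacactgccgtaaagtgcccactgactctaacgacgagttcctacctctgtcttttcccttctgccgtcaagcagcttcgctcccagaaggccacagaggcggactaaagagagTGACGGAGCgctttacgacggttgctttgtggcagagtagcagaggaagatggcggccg
Psme1: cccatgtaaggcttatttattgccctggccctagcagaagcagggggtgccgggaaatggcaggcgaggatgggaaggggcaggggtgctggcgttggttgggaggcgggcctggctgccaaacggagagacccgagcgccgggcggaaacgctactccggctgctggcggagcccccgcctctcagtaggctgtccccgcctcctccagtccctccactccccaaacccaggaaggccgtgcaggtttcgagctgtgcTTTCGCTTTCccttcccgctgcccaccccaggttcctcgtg

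Counted from the RefSeq start, the GAS match in Psmb8 runs from base -97 to -89, and the interferon factor match in Psme1 from base 10 to 19. The antioxidant match runs from -47 to -39 in Psmb5 and from -9 to -1 in Psmb6. Both strands were searched in 43 promoters of 40 members and in 32841 promoters of 27018 genes. TTCNNNGAA was found in 1 of 6 immunoproteasome promoters, 2 of 37 constitutive ones and 8.30% of all. The interferon factor motif was in 1 of 6, 4 of 37 and 3.44% of all. TGACNNNGC was in 0 of 6, 6 of 37 and 12.4% of all, and the NF-kappaB motif (GGG, any 2 bases and TTTCC) in 0 of 43 member promoters and 1.63% of all. A match is a stretch of letters and not a bound site.

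The subunits of the interferon-induced activator ring went in opposite directions. Psme1, which encodes its alpha subunit, had 278 CPM in skin and 388 CPM in lung, a ratio of 0.718 (0.692 to 0.744). Psme2, the beta subunit with which it assembles, had 390 CPM in skin and 285 CPM in lung, 1.37-fold (1.32 to 1.41), which is near the all-gene median. There were 0.714 Psme1 UMIs per Psme2 UMI in skin and 1.36 in lung. The genes lie near each other on chromosome 14, Psme1 (ENSMUSG00000022216) at chr14:55578123-55581529, plus strand, and Psme2 (ENSMUSG00000079197) at chr14:55587441-55591113, minus strand. Psme1 overlaps Emc9 on the opposite strand. Psme2 has a near copy, Psme2b, with 25.7 CPM in skin and 18.02 CPM in lung, and how reads were split between the copies was not examined.

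Expressed per 1000 constitutive proteasome UMIs of the same library, 4 of the 5 immunoproteasome members were lower in skin. Psmb9 had 21.3 in skin and 43.4 in lung, a ratio of 0.491 (0.465 to 0.519). Psme1 had 49.1 in skin and 94.7 in lung, 0.518-fold. Psmb10 had 17.7 in skin and 27.5 in lung, and Psmb8 95.7 in skin and 113 in lung. Psme2 was within counting error of the constitutive total, at 68.8 in skin and 69.7 in lung, a ratio of 0.987 (0.954 to 1.02). The all-gene median log2 ratio of 0.36 also lies below the 0.47 of the constitutive sum. A typical gene is therefore slightly lower in skin on this scale too, and the share of all genes that are was not counted.

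The alpha ring, the outer ring of the core, was even. Its 7 members past 20 CPM had log2 ratios of 0.40 to 0.70 with a median of 0.44, and summed to 1711 CPM in skin and 1203 CPM in lung. Psma2 was the most abundant in skin, with 389 CPM there and 249 CPM in lung. Psma4 had the highest ratio, 1.65, with 169 CPM in skin and 102 CPM in lung. Psma3, the most abundant in lung, had the lowest ratio, 1.32, with 351 CPM in skin and 265 CPM in lung, and its log2 ratio of 0.40 became -0.01 under median-of-ratios scaling. Psma3 overlaps an antisense gene that is in the skin gene list only. Psma8, the alpha subunit of spermatogenesis, had 0 UMIs in skin and 1 in lung.

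Among the other beta subunits, Psmb1, a structural member of the ring, was the second most abundant proteasome gene in both libraries, with 461 CPM in skin and 424 CPM in lung. Its ratio of 1.09 (1.05 to 1.12) was the lowest of the constitutive ring members, and its log2 ratio of 0.12 became -0.29 under median-of-ratios scaling. Psmb2, also structural, had the highest ratio, 1.64, with 243 CPM in skin and 148 CPM in lung. The 7 constitutive beta members past 20 CPM summed to 1787 CPM in skin and 1320 CPM in lung. Psmb11, the beta subunit of the thymoproteasome of thymic epithelium, had 1 UMI in skin and 0 in lung.

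The ATPases that unfold substrates were likewise even, with log2 ratios of 0.35 to 0.69 over all 6 and sums of 665 CPM in skin and 457 CPM in lung. Psmc3 had both the highest level and the highest ratio, with 176 CPM in skin and 107 CPM in lung, 1.64-fold. Psmc6 had the lowest, 1.29-fold, with 107 CPM in skin and 83.3 CPM in lung, and its log2 ratio of 0.35 became -0.04 under median-of-ratios scaling.

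Among role groups of constitutive members, the widest spread was in the remaining subunits and chaperones of the regulatory particle, 14 genes with log2 ratios from 0.05 to 1.04. Psmd6 (ENSMUSG00000021737, chr14:14112174-14120984, minus strand), a scaffold subunit of the lid, had 67.5 CPM in skin and 30.2 CPM in lung, 2.23-fold (2.03 to 2.46). Psmd2 (ENSMUSG00000006998, chr16:20651652-20663414, plus strand), the large base subunit that docks ubiquitin-binding shuttle factors, had 127.5 CPM in skin and 60.4 CPM in lung, 2.11-fold (1.97 to 2.26). These are the 2 members counted above as 2-fold apart. Close behind, and named after their values were seen, Psmd12 had 77.5 CPM in skin and 37.2 CPM in lung, and Psmd1, the other large base subunit, 61.6 CPM in skin and 30.3 CPM in lung. Their plain ratios of 2.08 and 2.03 were below 2-fold once 5 CPM was added.

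At the other end of this group, Psmd5, a chaperone of base assembly, had 27.0 CPM in skin and 25.8 CPM in lung, a ratio of 1.05 (0.922 to 1.19) within counting error. Psmd4, a ubiquitin receptor, was the most abundant, with 209 CPM in skin and 173 CPM in lung. Relative to all constitutive members, Psmd6 was 1.61-fold, Psmd2 1.52-fold and Psmd1 1.47-fold higher in skin, with Psmd12 between them, so these 4 departed from the constitutive total on any scaling.

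The remaining members are modulators and chaperones of core assembly, most of them low. Psme3, the nuclear activator, had 59.9 CPM in skin and 48.9 CPM in lung. Psme4, another nuclear activator, was under 20 CPM in both, with 19.01 CPM in skin and 9.75 CPM in lung. Psmf1, described as an inhibitor of the core, was lower in skin, with 23.9 CPM in skin and 32.2 CPM in lung, a ratio of 0.745 (0.657 to 0.843). Of the 4 assembly chaperones, Psmg4 was highest and also lower in skin, with 40.6 CPM in skin and 57.3 CPM in lung, 0.709-fold (0.645 to 0.779). Psmg2 had 25.8 CPM in skin and 20.4 CPM in lung, the highest ratio of the group, 1.26. Below 20 CPM were Psmg1, with 19.2 CPM in skin and 16.1 CPM in lung, and Psmg3, with 12.8 CPM in skin and 19.3 CPM in lung. Psmf1 and Psmg4 were the 2 constitutive members past 20 CPM with a log2 ratio below 0, at -0.36 and -0.45.

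**Figure D3:**
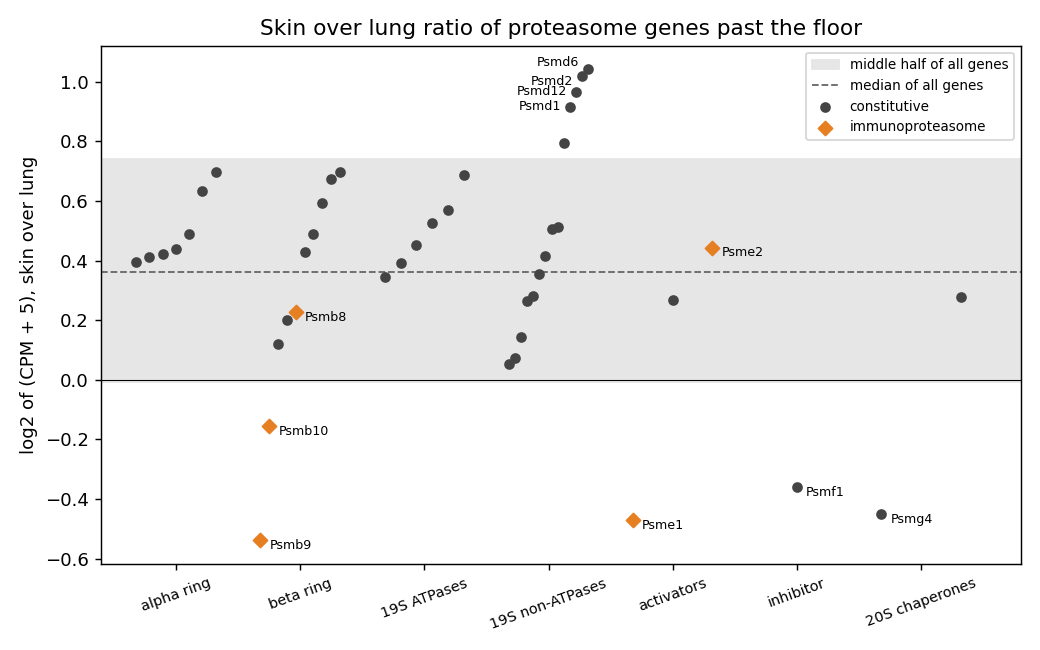
Log2 ratio of skin over lung, 5 CPM added to each side, for the 43 members past 20 CPM, by role, with immunoproteasome members marked apart. The dashed line is the all-gene median of 0.36 and the grey band spans the quartiles of all genes, -0.01 to 0.74; Psmd6, Psmd2, Psmd12, Psmd1 and Psmd11 lie above the band, and Psmb9, Psme1, Psmb10, Psmf1 and Psmg4 below it, while Psmb8, at 0.23, turns below 0 under the other scalings.

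The share of cells with a UMI followed the levels. Psmb8 was seen in 65.1% of skin and 63.3% of lung cells, or 40.9% and 35.2% of skin and lung cells after each cell was thinned to 1000 UMIs. Psmb9 was seen in 23.5% of skin and 34.7% of lung cells, thinned 10.6% in skin and 15.4% in lung. Psme1 was seen in 43.7% of skin and 60.2% of lung cells, thinned 23.4% in skin and 31.7% in lung. Thinning left out 0 skin and 117 lung cells. Proteasome genes are used by every cell type, so no barcode class in the files gives a level for free RNA alone.

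At 1000 UMIs a cell, skin cells held 5.42 ± 2.50 constitutive UMIs (SD over 6510 cells) and lung cells 3.89 ± 2.10 (SD over 8282 cells). Immunoproteasome UMIs averaged 1.39 ± 1.33 in skin and 1.38 ± 1.29 in lung cells, and 28.4% of cells in each tissue had none. The variance over the mean was 1.15 in skin and 1.13 in lung for constitutive UMIs and 1.27 in skin and 1.21 in lung for immunoproteasome UMIs. This ratio depends on the mean, so the sets are not compared by it.

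Within each library, cells with more UMIs of interferon-stimulated genes had more immunoproteasome RNA. Cells were binned at 1000 UMIs by 17 such genes, none of them a proteasome gene. These genes summed to 1029 CPM in skin and 3366 CPM in lung, and Ifi27l2a alone gave most of the sum in both tissues. The bins therefore rest largely on that gene, and they were not remade without it. In skin, immunoproteasome levels were 1285, 1441, 1572 and 1817 CPM in the 2908, 2106, 890 and 606 cells with 0, 1, 2 and 3 or more of these UMIs. In lung they were 1169, 1289, 1334 and 1604 CPM in 1347, 1796, 1501 and 3638 cells. Constitutive levels over the same bins were 5545, 5705, 5742 and 5982 CPM in skin and 3685, 3924, 3884 and 4382 CPM in lung. Immunoproteasome RNA was thus 1.41-fold (1.36 to 1.47) higher in skin and 1.37-fold (1.33 to 1.42) higher in lung in the highest bin over the lowest, and constitutive RNA 1.08-fold and 1.19-fold in skin and lung.

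All 5 immunoproteasome members were higher in the top bin in both tissues, against 51.5% of all genes in skin and 68.5% in lung. Their median log2 ratio was 0.48 in skin and 0.56 in lung, beside 0.01 and 0.11 for all genes and 0.11 and 0.23 for constitutive members of skin and lung. Psmb9 had the widest difference in skin, 179 CPM in the top bin and 103 CPM in the bin at 0, 1.75-fold (1.52 to 2.01). In lung Psme2 was 1.53-fold (1.41 to 1.65) higher in the top bin, with 335 CPM there and 220 CPM at 0, and Psmb9 1.52-fold (1.38 to 1.69). Psme1 had the narrowest difference in lung, 1.19-fold (1.12 to 1.27). The share of immunoproteasome UMIs over the 3 catalytic pairs was 56.1, 58.5, 60.8 and 63.4% across the skin bins and 63.8, 64.6, 66.5 and 68.1% across the lung bins. In skin each pair had a higher share in the top bin than at 0, 79.1 against 74.0% for Psmb8, 43.4 against 30.3% for Psmb9 and 46.4 against 40.1% for Psmb10. The skin intervals of Psmb10 overlapped, 41.7 to 51.2 against 37.6 to 42.7%. In lung Psmb9 had a higher share in the top bin, 55.8 against 45.1%. The lung values of Psmb8 (80.6 against 80.0%) and Psmb10 (53.2 against 51.25%) were within counting error. At every bin the share over the 3 pairs was lower in skin. It was 63.4% in skin cells with 3 or more interferon-stimulated UMIs, close to the 63.8% of lung cells with 0. Median UMIs per cell were 2369 in the top and 1978.5 in the lowest bin of skin, and 2497 and 2281 in those of lung; the part of depth was not tested.

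Cells with 3 or more UMIs of proliferation genes had more of both sets, constitutive more than immunoproteasome. In skin the 125 such cells had 7455 CPM of constitutive RNA and the cells with 0 had 5553 CPM, 1.34-fold (1.30 to 1.38). In lung, 109 such cells had 6436 CPM and cells with 0 had 3907 CPM, 1.65-fold (1.60 to 1.69). Immunoproteasome RNA was 1.22-fold higher in skin and 1.39-fold higher in lung. The median log2 ratio of constitutive members was 0.48 in skin and 0.73 in lung, beside 0.04 and 0.25 for all genes, and 38 of 39 members in skin and 39 of 40 in lung were above 0, against 52.9% of all genes in skin and 64.2% in lung. Among single members, Psmd13, a lid subunit, was 2.13-fold higher in skin and 2.81-fold in lung, and Psmc1, an ATPase, 3.50-fold in lung, examples named after their values were seen.

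Of the immunoproteasome genes, Psmb9 had the widest difference in the proliferating bin in both tissues, 1.88-fold (1.56 to 2.25) higher in skin and 1.75-fold (1.54 to 1.99) in lung. The share over the 3 catalytic pairs was lower in the proliferating bin in lung, 63.0% (60.6 to 65.5) against 67.0% (66.4 to 67.6). In skin the intervals overlapped, 56.3% (53.3 to 59.3) against 58.5% (57.8 to 59.3). The pairs differed in direction, beyond the counting intervals in lung, while in skin the intervals overlapped for each pair. In lung the share of Psmb9 with Psmb6 was higher in the proliferating bin, 58.2 against 50.9%. It was lower for Psmb10 with Psmb7, 39.9 against 55.5%, and for Psmb8 with Psmb5, 75.7 against 80.6%. The skin values were 39.6% (34.4 to 45.1) against 33.8% (32.4 to 35.2) for Psmb9. They were 36.3% (29.3 to 43.8) against 43.2% (41.4 to 45.0) for Psmb10. For Psmb8 they were 72.4% (68.6 to 76.0) against 75.4% (74.5 to 76.3). Cells of the proliferating bin were much deeper, with medians of 4591 against 2028 UMIs in skin and 7548 against 2346 UMIs in lung. The part of depth and of doublets, which were not removed, was not tested.

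Cells were also classed by a UMI of a single gene. Cells with a UMI of Cxcr3, a chemokine receptor of type 1 effector cells, had 1.28-fold the immunoproteasome level of cells without it in skin (193 cells) and 1.40-fold in lung (504 cells). Constitutive levels in the same cells were 1.03-fold in skin and 1.35-fold in lung. Median UMIs per cell were 2547 with and 2050 without a Cxcr3 UMI in skin, and 4166 and 2323 in lung. The ribosomal protein share of UMIs was 21.3% with and 18.8% without it in skin, and 30.4 and 39.0% in lung. The part of depth and of this share in the ratios was not tested. Most genes were higher with a Cxcr3 UMI in lung, 69.1% of all genes, against 48.3% in skin. The median log2 ratio of immunoproteasome members was 0.39 in skin and 0.47 in lung, beside -0.01 and 0.19 for all genes. For constitutive members it was 0.02 in skin and 0.37 in lung. The share over the catalytic pairs was 64.3% with and 58.2% without a Cxcr3 UMI in skin, and 68.7% with and 66.3% without in lung. In the 1320 skin cells with a UMI of Il13, a type 2 cytokine, the share was 56.6%, against 59.1% without. Cells with an Il13 UMI were also deeper, with a median of 2307 against 2011 UMIs. No lung cell had an Il13 UMI.

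Immunoproteasome levels in cells with a Foxp3 UMI were 0.988-fold those without in skin and 0.978-fold in lung, and constitutive levels 1.03-fold in both. Cells with a UMI of Areg, a tissue repair factor, stood at 1.01-fold in skin and 1.04-fold in lung for the immunoproteasome. Those with Il10, an inhibitory cytokine, stood at 1.03-fold in skin and 1.21-fold in lung, where only 95 cells had it. With S100a4, a gene of effector and memory T cells, immunoproteasome RNA was 0.970-fold in skin and 1.28-fold in lung and constitutive RNA 1.07-fold in skin and 1.32-fold in lung. Cells with a UMI of any of these genes were deeper than those without it in both libraries, with S100a4 2145 against 1638 UMIs in skin and 3312 against 2285 in lung. In lung most genes were higher with an S100a4 UMI (73.2%, median log2 ratio 0.21) or an Il10 UMI (69.3%, median 0.21). There the ribosomal protein share of UMIs was 30.5% with and 40.3% without an S100a4 UMI. The part of this shift in the proteasome ratios was not tested.

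The early response genes, which rise when tissue is digested or cells are activated, gave no contrast in skin, where 6502 of 6510 cells had 3 or more of their UMIs. In lung, the 7112 such cells had less proteasome RNA than the 145 with 0, 3990 CPM against 5238 CPM for constitutive members (0.762-fold) and 1404 CPM against 1556 CPM for the immunoproteasome (0.903-fold). Of all genes, 44.8% were higher in the 7112 cells, with a median log2 ratio of -0.06, beside -0.43 for constitutive and -0.16 for immunoproteasome members. Median UMIs were 2337.5 in the 7112 cells and 2746 in the 145, and ribosomal protein shares 38.4 and 36.1%. The part of depth and of this share was not tested. Summed over all Cd3 cells, the 18 early response genes had 21639 CPM in skin and 6496 CPM in lung, and their part in the tissue difference was not tested.

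**Figure D4:**
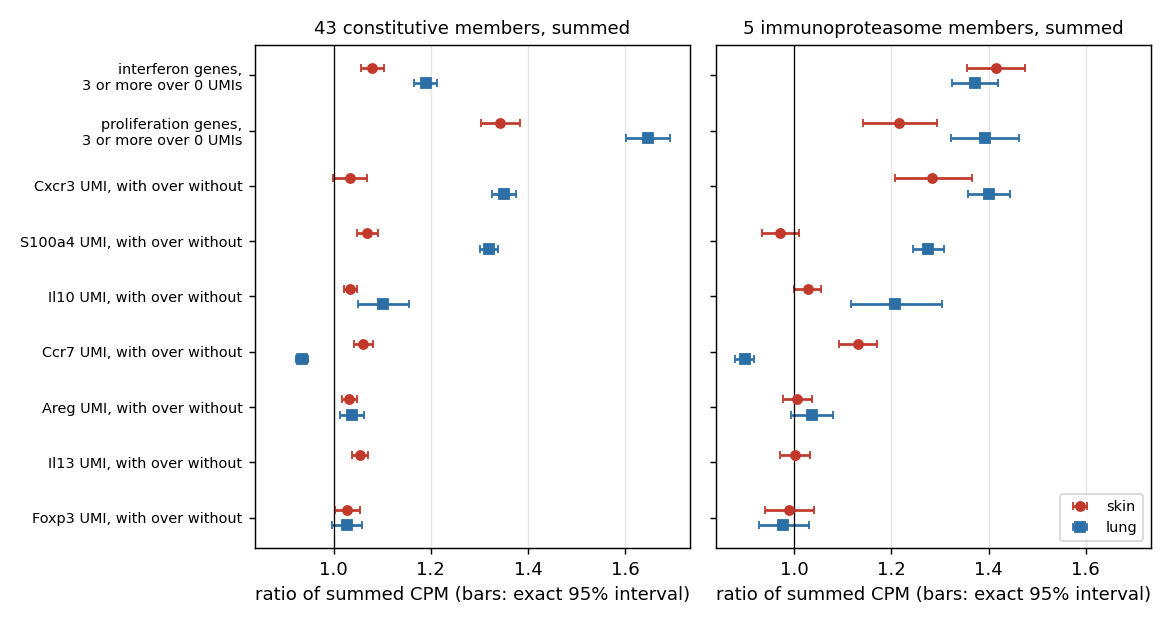
Ratio of summed CPM, cells of the named class over cells without it, for constitutive and immunoproteasome members in skin (red) and lung (blue), with 95% counting intervals. The interferon-stimulated contrast is wider for immunoproteasome members, at 1.41 in skin and 1.37 in lung, and the proliferation contrast for constitutive members, at 1.34 in skin and 1.65 in lung.

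Genes around the proteasome are described from lists chosen with earlier results of these data known. Of 17 genes of MHC class I presentation, which uses the peptides, all passed 20 CPM, with a median log2 ratio of 0.43, beside 0.36 for all genes. Only 1 was 2-fold higher in skin, against 15.0% of all genes, and none in lung, against 5.04%. That gene was Pdia3, an oxidoreductase of the loading complex, with 623 CPM in skin and 209 CPM in lung. Calr, its chaperone partner, had 377 CPM in skin and 196 CPM in lung, Canx, a related chaperone, 160 CPM in skin and 78.2 CPM in lung, and B2m, the light chain, 5336 CPM in skin and 4386 CPM in lung. H2-D1, a classical heavy chain, had 5018 CPM in skin and 2668 CPM in lung. The nonclassical heavy chain gene H2-T22 was the only member with a log2 ratio below 0 on the CPM scale, with 162 CPM in skin and 244 CPM in lung.

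Interferon-stimulated genes had the opposite direction. Of 17, 11 passed 20 CPM, 5 were 2-fold higher in lung, against 5.04% of all genes, and none in skin, against 15.0%. The median log2 ratio was -0.91, beside 0.36 for all genes. Ifi27l2a, encoding a small interferon-induced membrane protein, had 620 CPM in skin and 2669 CPM in lung, and Usp18, which damps interferon signalling, 2.56 CPM in skin and 29.5 CPM in lung. Of 14 genes of interferon and its regulators, 11 passed, 2 were 2-fold higher in skin, near the 15.0% of all genes, and none in lung, against 5.04%. The median log2 ratio was 0.03. Socs1, a feedback inhibitor, had 92.5 CPM in skin and 41.0 CPM in lung, and Jak2, a kinase of the interferon gamma receptor, 45.1 CPM in skin and 19.9 CPM in lung. Irf9, part of the type I interferon transcription complex, had 40.0 CPM in skin and 74.9 CPM in lung, and Ifngr2, a chain of the interferon gamma receptor, 34.3 CPM in skin and 72.4 CPM in lung. Irf1, a main inducer of Psmb9, had 93.4 CPM in skin and 91.6 CPM in lung.

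Of 18 measured genes of proteasome assembly, transcription and partners, 15 passed, with a median log2 ratio of 0.46. A 2-fold higher level in skin was reached by 1 of them, against 15.0% of all genes, and in lung by none, against 5.04%. That was Rad23b, a shuttle that brings ubiquitinated proteins to the proteasome, with 123 CPM in skin and 55.6 CPM in lung. Zfand5, a proteasome-binding protein, had 121 CPM in skin and 58.0 CPM in lung, and Nfe2l1, the transcription factor that induces constitutive subunits, 31.3 CPM in skin and 13.7 CPM in lung. Pomp, the maturation chaperone of new cores, had 296 CPM in skin and 224 CPM in lung. Of 19 genes of ubiquitin and its first enzymes, 17 passed, with a median of 0.48, none 2-fold higher in skin, against 15.0% of all genes, and 1 in lung, against 5.04%, Rps27a, a fusion of ubiquitin and a ribosomal protein, with 2305 CPM in skin and 4876 CPM in lung. Of 15 proliferation genes, 10 passed, with a median of 0.22. Ube2c alone was 2-fold higher in lung, against 5.04% of all genes, and none was in skin, against 15.0%, with Ube2c at 8.38 CPM in skin and 24.2 CPM in lung. Of 18 early response genes, 10 were 2-fold higher in skin, against 15.0% of all genes, 3 were 2-fold higher in lung, against 5.04%, and the median log2 ratio was 1.65.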

How the data were processed

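The deposited values were raw UMI counts of each gene in each barcode, which the authors had already called as cells. Cell Ranger and mm10 are named without a version in the submitters' processing notes, and the lung matrix header gives software version 3.0.2. A second lung matrix held 8626 barcodes, all of them in the first, and served as an alternative. Cells were not clustered and doublets were not removed. Counts were summed over Cd3 cells and divided by UMIs in shared genes (CPM). Log2 ratios had 5 CPM added, and genes needed 20 CPM in either library. Levels have exact Poisson intervals, ratios exact binomial and shares Clopper-Pearson intervals, at 95%. The limit that a count of 0 allows, 3 counts, was 0.188 CPM in skin and 0.128 CPM in lung. Python 3.11.15, numpy 2.4.6, scipy 1.17.1 and pandas 2.3.3 were used, and the ratio intervals were tested on simulated data. Named were the 5 immunoproteasome members, their 3 counterparts, the highest and lowest ratio and highest level per role, members 2-fold apart or below 20 CPM, and up to 4 list genes with the widest ratio. Tap1, B2m, H2-T22, Irf1, Pomp, Psmd1, Psmd11, Psmd12, Psmd13 and the Psmc1 class value were added after their values were seen. Members and lists were chosen with earlier results of these data known. Some genes of the lists are not reported here. Alternatives changed the scaling, added CPM, floor, cell filters, depth and lung matrix.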

Additional observations from a re-analysis of the deposited data

Results flagged for a closer look

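Cells with a UMI of Ccr7, a receptor that guides T cells to lymph nodes, differed from cells without it in opposite directions in the tissues. Immunoproteasome RNA was 1.13-fold in the 777 skin cells with a Ccr7 UMI and 0.898-fold in the 4696 lung cells. Constitutive RNA was 1.06-fold in skin and 0.935-fold in lung. The difference between tissues was not tested, since each has 1 library. Median depth was higher with a Ccr7 UMI in both, 2561 against 2015 UMIs in skin and 2511 against 2198 UMIs in lung. Of all genes, 45.8% in skin and 37.8% in lung were higher with a Ccr7 UMI, with median log2 ratios of -0.02 and -0.05. The medians were 0.19 and -0.18 for immunoproteasome and 0.11 and -0.09 for constitutive members of skin and lung. Ribosomal protein shares were 22.6% with and 18.2% without it in skin, and 39.8 and 35.9% in lung. The part of depth and of this share was not tested.

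Barcodes without a Cd3 UMI, which entered no proteasome comparison above, also held immunoproteasome RNA, at 995 CPM over 91 barcodes of skin and 1089 CPM over 331 barcodes of lung.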

How the results depend on the processing

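No paired analysis was possible because each tissue has only 1 sample, and a pair needs at least 2 in each. The count of constitutive members 2-fold apart, 2 as reported, was 0 under median-of-ratios scaling and 0 with totals free of mitochondrial and ribosomal protein genes, 4 with 1 CPM added, and 1 each with at least 3 Cd3 UMIs and without the 6% of cells with the most UMIs. No immunoproteasome member was 2-fold apart under any of the 15 alternatives. The constitutive summed log2 ratio (0.47) was 0.061 under median-of-ratios scaling, 0.076 with the reduced totals, 0.51 without the deepest cells, 0.52 without cells carrying other types' markers, 0.45 with the second lung matrix and 0.55 in cells with 1500 to 3000 UMIs. The immunoproteasome summed log2 ratio (0.01) turned to -0.40 and -0.39 under those scalings and to -0.024 with the second lung matrix, and was 0.051 without cells carrying other markers and 0.050 at 1500 to 3000 UMIs. Psmb8 turned to -0.18 and -0.16 under the scalings, and Psmb10 (-0.16) to 0.018 at 1500 to 3000 UMIs; the cause was not tested. The skin share over the catalytic pairs was 59.2% without the deepest cells, 59.6% thinned and 59.3% at 1500 to 3000 UMIs, and the lung share 65.3% in cells with a Foxp3 UMI and 67.3% thinned. Over these alternatives skin stayed between 58.0% and 59.6% and lung between 65.3% and 67.3%. The range of 1500 to 3000 UMIs and leaving out shared barcodes were chosen after seeing the data. With 1 library per tissue, differences between animals cannot be told apart from differences between tissues.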

Other observations

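The barcodes without a Cd3 UMI differed among themselves in the catalytic pairs. Immunoproteasome UMIs were 45.3% (37.2 to 53.7) of the 3 pairs over 91 such barcodes of skin and 53.2% (49.3 to 57.0) over 331 of lung, against 58.5% and 66.6% in the Cd3 cells of skin and lung. In the 12 skin barcodes with at least 10 UMIs and 1% of UMIs from fibroblast markers, the share was 16.7% (3.58 to 41.4). It was 19.05% (11.3 to 29.1) in 35 lung barcodes with lung epithelium markers by the same rule, where immunoproteasome genes summed to 464 CPM. In 27 lung barcodes with endothelial markers it was 54.5% (44.2 to 64.6), with 1566 CPM. These barcodes belong to 1 library each and the classes were not compared by a test.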
